A study of Mus musculus with 12 samples.

Results

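The comparison described here sets the lacrimal glands of NOD mice aged 8 weeks against those of control mice, with 3 RNA sequencing libraries in each group. Its members are the genes that reached at least 1 FPKM in at least 3 of these 6 libraries, which left 9967 of the 11736 genes listed and put 1769 below the filter. FPKM is the number of sequenced fragments per kilobase of transcript, scaled to the size of the library, so levels can be compared between genes. Comparison between libraries depends on the scaling, because a level is a share of its library, and other scalings are given below. The study sequenced 12 libraries in 4 groups of 3, namely NOD mice at 8 weeks, NOD mice at 12 weeks, mice labelled ESS (LGSS in the design text) and control mice, and its title concerns a mouse model of Sjögren's syndrome made with a lacrimal autoantigen. NOD (non-obese diabetic) is an inbred strain prone to autoimmunity, and no transgene or treatment is named for the NOD or the control mice. The labels state neither the strain nor the age of the control mice, nor the sex of any mouse. Strain, age and sex therefore cannot be told apart from any difference reported below. Nothing in them says that the libraries are of separate mice, so a p-value here reflects the spread among these samples alone, which may be technical.

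The lacrimal gland makes the watery layer of tears. Its acinar cells pack secretory proteins through the endoplasmic reticulum and the Golgi into granules, while duct cells adjust ions and water. In rodents its secretions are rich in secretoglobins, lipocalins and exocrine gland-secreted peptides, small proteins that include carriers of odorants and pheromones. In Sjögren's syndrome lymphocytes gather around the ducts and acini, and interferon response genes and the molecules that present antigen to T cells are often raised. NOD mice are used as a model because their exocrine glands become inflamed with age, in lacrimal glands earlier in males than in females.

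The lacrimal identity of all 6 libraries was read from their markers. The 9 acinar markers summed to between 11071 and 12433 FPKM in the NOD libraries and to between 5178 and 5511 FPKM in the control libraries. Skeletal muscle markers summed to at most 0.737 FPKM in NOD libraries and 0.781 FPKM in control libraries, and brown fat markers to at most 2.01 and 2.91 FPKM. Salivary gland markers, among them Bhlha15, which is also an acinar marker, summed to between 334 and 395 FPKM in NOD libraries and between 273 and 350.4 FPKM in control libraries. Sebaceous and meibomian gland markers summed to between 35 and 46.3 FPKM in NOD libraries and between 33 and 37.2 FPKM in control libraries, and 1 of the 2 tested was called higher. The salivary transcripts Smr3a and Bpifa2 were scattered in both groups, Smr3a being at 0.663, 10.6 and 4.07 FPKM in the NOD libraries and at 16.4, 0.811 and 0 FPKM in the control libraries. A few genes held most of the signal, since the 20 most abundant genes of each library took 69.8% to 75.9% of listed FPKM in NOD libraries and 66.7% to 69.8% in control libraries. Genes at 1 FPKM or more numbered 9202 to 9633 in NOD libraries and 9910 to 10010 in control libraries. No counts were used here and the low values did not resolve into whole reads, so the depth behind each value is unknown.

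Lower levels outnumbered higher ones in the NOD glands. At a limma adjusted p of 0.05, 522 genes were higher in NOD glands, 5.24% of those tested, and 2216 were lower, 22.2% of those tested. The middle of all genes was itself shifted, with a median log2 change of −0.15 and an interquartile range of −0.34 to 0.04. With this median taken off before the test, an alternative chosen after seeing the data, 859 genes were higher (8.62%) and 1083 lower (10.9%), and they included all of the 522 higher genes and 1083 of the 2216 lower ones. The share of calls that were higher was 19.1% in the test as made and 44.2% with the median off. It was 46.9% after quantile normalization, 50.7% with library medians centred and 38.5% when libraries were rescaled without the 50 most abundant genes. The direction of a gene list is therefore given with its count both ways, the median-off count standing second. All 3 NOD libraries exceeded all 3 control libraries in 747 genes (7.49%) and lay below them in 3340 genes (33.5%). Most changes were small, with a median absolute log2 change of 0.63 among called higher genes and 0.54 among called lower genes, and 45 higher and 70 lower genes passed a test against a change of 2-fold.

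**Figure D1:**
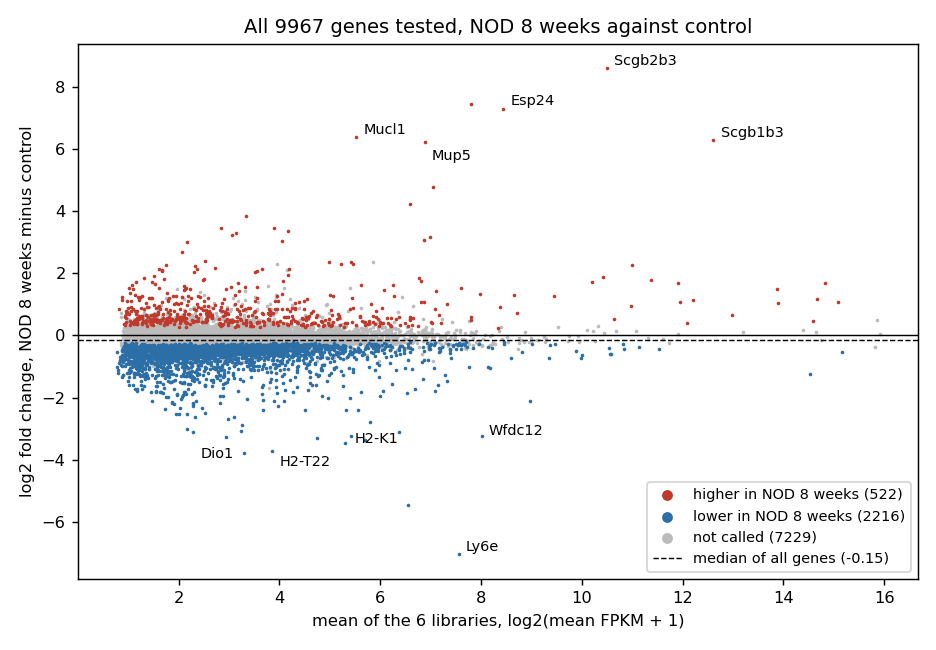
Each point is 1 of the 9967 genes tested, placed by its log2(mean FPKM + 1) over the 6 libraries on the horizontal axis and its log2 fold change, NOD 8 weeks minus control, on the vertical axis. Red points (522) were called higher and blue points (2216) lower, and the dashed line marks the median of all genes at −0.15.

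Many of the products that the gland secretes rose. Of the 23 tested genes of the secretoglobin family, small secreted proteins that in rodents carry scent and pheromone signals, 19 rose (19 with the median off), and their median log2 change was 1.55 beside −0.15 for all genes. Together secretoglobins took 39.8% to 42.9% of the listed FPKM in NOD libraries and 22.3% to 29.6% in control libraries. In whole-gland RNA a difference like this cannot be told apart between more cells of a type and more RNA per cell, and the same holds for every lower level below. Scgb2b3 (ENSMUSG00000078754.2, chromosome 7, 31359038 to 31362072, GRCm38) was at 3314, 3310.0 and 2023 FPKM in the NOD libraries, against 1.99, 11.4 and 9.42 FPKM in the control libraries. It was nearly silent in control glands and among the abundant transcripts of NOD glands (log2 change 8.59 ± 0.45 (SE), limma adjusted p = 1.22e-07). Scgb1b3 (ENSMUSG00000095257.1, chromosome 7, 31375592 to 31376916) was at 15911, 11517 and 9547 FPKM in the NOD libraries, against 156, 121 and 196 FPKM in the control libraries. Scgb2b12 was at 18, 17 and 9.01 FPKM in the NOD libraries, against 0, 2.6 and 0 FPKM in the control libraries. Both were higher in every NOD library than in any control library, at log2 changes of 6.28 and 3.30, and Scgb2b12 was listed at 0 in 2 control libraries.

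Secretoglobins that were also abundant in control glands had smaller log2 changes. Scgb1b7 was at 41817, 48804 and 41329 FPKM in the NOD libraries, against 16296, 8590.2 and 17991 FPKM in the control libraries. It gained more FPKM than any other called gene (log2 change 1.69 ± 0.26 (SE), limma adjusted p = 0.000627), and the NOD and control libraries did not overlap. Scgb1b20 was at 46131, 44641 and 48293 FPKM in the NOD libraries, against 26622, 13659.6 and 29009.6 FPKM in the control libraries, and its log2 change was 1.08, adjusted p = 0.00855. Scgb2a2, a relative of human mammaglobin, was at 1756, 1626 and 1985 FPKM in the NOD libraries, against 477, 677 and 493 FPKM in the control libraries. The NOD libraries again lay wholly above the control libraries (log2 change 1.72 ± 0.13 (SE), limma adjusted p = 2.83e-06). Not every member followed, for Scgb2b24 was at 25044, 23805 and 28305 FPKM in the NOD libraries, against 30763, 23027 and 33058 FPKM in the control libraries, and Scgb1b2, the most abundant secretoglobin, differed by a log2 change of 0.49 with an adjusted p of 0.147. In control library 2, Scgb1b7, Scgb1b20 and Scgb2b20 were lower than in the other two control libraries. Scgb1b20, Scgb1b3, Scgb1b7, Scgb2b12 and Scgb2b20 each share at least 95% of their sequence over at least 50% of a transcript with another family member, so the division of reads among them is uncertain. A run of 12 of the 14 genes tested between 32 and 34 Mb of chromosome 7, where this family is clustered, was at least 2-fold higher.

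**Figure D2:**
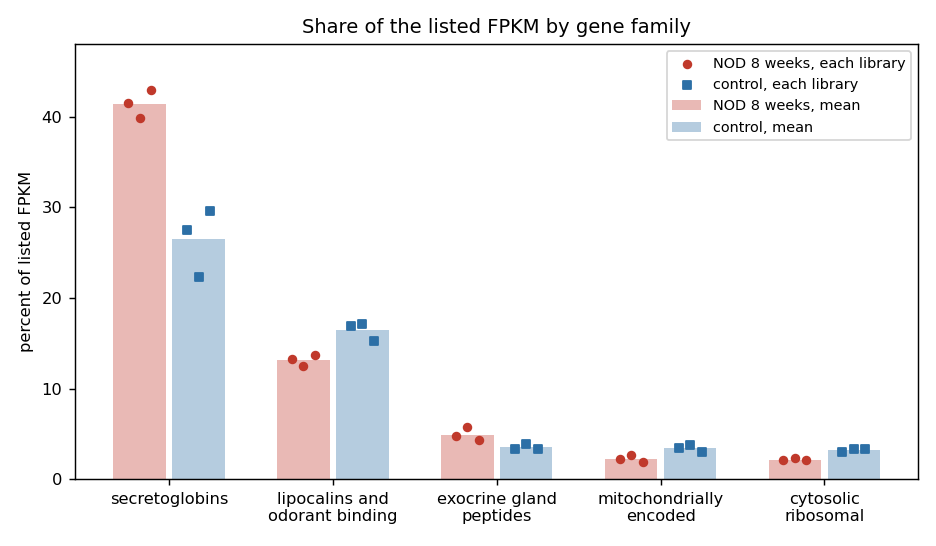
Bars give the mean and points the value of each library for the percent of listed FPKM taken by 5 gene families, NOD 8 weeks in red and control in blue. Secretoglobins stood at 39.8% to 42.9% in NOD libraries and 22.3% to 29.6% in control libraries, while lipocalins, mitochondrially encoded and ribosomal protein genes took a smaller share in NOD libraries.

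Exocrine gland-secreted peptides rose as well. These are tear peptides with pheromone activity in mice, and 9 of the 13 tested rose (10 with the median off), with a median log2 change of 0.91. Esp24 (ENSMUSG00000095625.1, chromosome 17, 39038285 to 39040117) was at 762, 709 and 593 FPKM in the NOD libraries, against 1.52, 3.27 and 6.82 FPKM in the control libraries. Its control level was within a few FPKM of 0 and its NOD level far above (log2 change 7.29 ± 0.37 (SE), limma adjusted p = 1.01e-07). Esp23 was at 233, 214 and 238 FPKM in the NOD libraries, against 26.7, 32.2 and 16.7 FPKM in the control libraries. Esp31 was at 5565, 7039 and 5008 FPKM in the NOD libraries, against 1584, 2134 and 1723 FPKM in the control libraries. Esp16 was at 3297, 3803 and 2916 FPKM in the NOD libraries, against 919, 807 and 431 FPKM in the control libraries. In all of them the libraries of the groups did not overlap, and the log2 changes were 3.18 for Esp23, 1.69 for Esp31 and 2.28 for Esp16. Esp6, among the most abundant of the family, averaged 9669.7 ± 494 FPKM in NOD glands and 8997 ± 358 FPKM in control glands (SD, n = 3 each) and did not pass the limma test (adjusted p = 0.376). Between 38 and 40 Mb of chromosome 17, 6 of 9 tested genes were at least 2-fold higher, and all 6 were members of this family.

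Other secreted proteins went both ways. Mucl1, a mucin-like secreted protein (ENSMUSG00000060311.11, chromosome 15, 103751919 to 103755469), was at 100.3, 78.3 and 92 FPKM in the NOD libraries, against 0, 0.163 and 0.128 FPKM in the control libraries. It was at or next to 0 in each control library (log2 change 6.37 ± 0.16 (SE), limma adjusted p = 5.42e-10), whereas its abundant relative Mucl2 averaged 50629 ± 11823 FPKM in NOD glands and 64898 ± 3449 FPKM in control glands (SD, n = 3 each) without passing the test (adjusted p = 0.119). Major urinary proteins are lipocalins that bind volatile pheromones. Mup5 was at 239, 220.2 and 235 FPKM in the NOD libraries, against 2.29, 2.66 and 1.54 FPKM in the control libraries. Mup6 was at 7.01, 7.17 and 6.59 FPKM in the NOD libraries, against 13.5, 15.5 and 14.7 FPKM in the control libraries. Mup5 rose (log2 change 6.21 ± 0.73 (SE), limma adjusted p = 9.22e-05) and Mup6 fell (log2 change -0.97 ± 0.10 (SE), limma adjusted p = 2.71e-05), while Mup4 differed by 0.15, adjusted p = 0.335. Among lipocalins and odorant binding proteins, 2 of 5 rose and 2 fell (the same numbers with the median off), and their median log2 change was 0.05. Gm14743, nearly identical in sequence to Obp1b, lost more FPKM than any other called gene. It was at 14205, 13149.7 and 15086 FPKM in the NOD libraries, against 35028, 31885 and 32885 FPKM in the control libraries (log2 change -1.23 ± 0.13 (SE), limma adjusted p = 4.03e-05). Obp1b was at 29665, 28331 and 31774 FPKM in the NOD libraries, against 46150.4, 41378 and 41696 FPKM in the control libraries, but its fall lost significance with library medians centred and with the rescaling (adjusted p = 0.118 and 0.102), and reads shared with Gm14743 make the division between them uncertain.

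Of 13 tested proteins that defend the eye surface, 2 rose and 5 fell (3 and 4 with the median off), around a median of −0.21. Wfdc12, a protease inhibitor with antibacterial activity, was at 44.9, 41.9 and 45.4 FPKM in the NOD libraries, against 419, 255 and 734 FPKM in the control libraries. The control values were widely spread and all far above the NOD values (log2 change -3.25 ± 0.27 (SE), limma adjusted p = 5.30e-06). Pigr, the receptor that carries polymeric IgA across the epithelium into tears, was at 103, 85 and 82 FPKM in the NOD libraries, against 212, 273 and 178 FPKM in the control libraries, and it fell (log2 change -1.27 ± 0.15 (SE), limma adjusted p = 0.000105). Slpi, a secreted inhibitor of neutrophil proteases, was at 2.35, 4.16 and 2.24 FPKM in the NOD libraries, against 0.206, 0 and 0 FPKM in the control libraries. It rose (log2 change 1.85 ± 0.18 (SE), limma adjusted p = 1.78e-05), and 2 control libraries listed it at 0. Ltf, the iron-binding lactoferrin of tears, averaged 477 ± 50.2 FPKM in NOD glands and 538 ± 41.6 FPKM in control glands (SD, n = 3 each) with an adjusted p of 0.226.

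**Figure D3:**
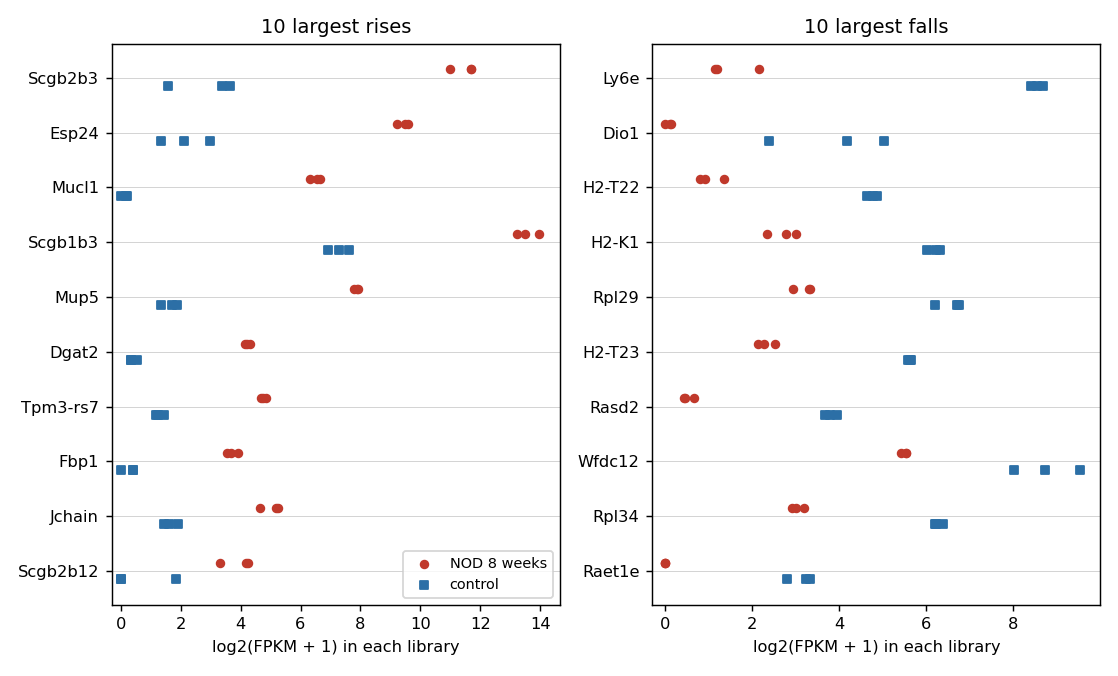
Each point is 1 library, NOD 8 weeks as red circles and control as blue squares, for the 10 largest rises and the 10 largest falls among called genes with at least 5 FPKM in the higher group, on a log2(FPKM + 1) axis. The groups do not overlap for any of the 20 genes, which the naming rule required, and Raet1e was listed at 0 in the 3 NOD libraries.

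Among other large rises, Dgat2, the enzyme that adds the last fatty acid to triglyceride (ENSMUSG00000030747.5, chromosome 7, 99153658 to 99182719), was at 17.6, 19 and 16.8 FPKM in the NOD libraries, against 0.265, 0.266 and 0.459 FPKM in the control libraries. It was low in every control gland and moderate in every NOD gland (log2 change 3.82 ± 0.12 (SE), limma adjusted p = 1.02e-09). Fbp1, a gluconeogenic phosphatase, was at 10.6, 11.8 and 14.1 FPKM in the NOD libraries, against 0.317, 0.321 and 0 FPKM in the control libraries (log2 change 3.44 ± 0.16 (SE), limma adjusted p = 4.81e-08). Tpm3-rs7 was at 27.9, 25.6 and 24.6 FPKM in the NOD libraries, against 1.36, 1.72 and 1.27 FPKM in the control libraries. This copy shares its sequence with Tpm3, so its rise (log2 change 3.47 ± 0.10 (SE), limma adjusted p = 7.79e-10) may be divided with that gene by the counting and is uncertain. Tpm3 itself was called at least 2-fold lower in NOD glands, and whether reads were divided between the 2 genes was not tested. Among large falls, Rasd2, a small GTP-binding protein, was at 0.585, 0.346 and 0.376 FPKM in the NOD libraries, against 11.7, 14.3 and 12.8 FPKM in the control libraries (log2 change -3.28 ± 0.16 (SE), limma adjusted p = 6.19e-08). Dio1, which converts thyroid hormone to its active form, was at 0, 0.0927 and 0.0724 FPKM in the NOD libraries, against 17, 4.24 and 31.4 FPKM in the control libraries. The control libraries were scattered over a wide range, and still the highest NOD value was below the lowest control value (log2 change -3.78 ± 0.48 (SE), limma adjusted p = 0.000151). Raet1e, a ligand of the NKG2D receptor of killer lymphocytes, was listed at 0 in all NOD libraries and at 5.89, 9.02 and 8.43 FPKM in the control libraries, and it has a near-identical copy, Raet1d. Cyp2f2, a monooxygenase that activates foreign compounds, was at 194, 197 and 162 FPKM in the NOD libraries, against 721, 951 and 762 FPKM in the control libraries, and it fell by a log2 change of -2.13 with an adjusted p of 3.07e-07.

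The folding machinery of the endoplasmic reticulum was higher in NOD glands in part. Of 30 tested chaperones and genes of the unfolded protein response, which raises folding capacity when unfolded proteins build up, 9 rose and 1 fell (10 rose with the median off), around a median of 0.12. Calr, the calcium-binding chaperone calreticulin, was at 508, 564 and 475 FPKM in the NOD libraries, against 350.2, 338 and 265 FPKM in the control libraries. Every NOD library exceeded every control library (log2 change 0.70 ± 0.12 (SE), limma adjusted p = 0.00161). Pdia3, which works with calreticulin to form disulphide bonds, was at 166, 165 and 167 FPKM in the NOD libraries, against 127, 137 and 116 FPKM in the control libraries (log2 change 0.39 ± 0.09 (SE), limma adjusted p = 0.00921). Dnajb11, a co-chaperone of BiP, was at 73.4, 75.2 and 64.7 FPKM in the NOD libraries, against 51.5, 53.7 and 57.5 FPKM in the control libraries (log2 change 0.38 ± 0.08 (SE), limma adjusted p = 0.00524). Hsp90b1, the reticulum's Hsp90, was at 154, 153 and 136 FPKM in the NOD libraries, against 110.2, 119 and 98.5 FPKM in the control libraries (log2 change 0.43 ± 0.10 (SE), limma adjusted p = 0.00897). These rises were below 2-fold, and the groups were separate in each. Canx, calnexin, averaged 83.6 ± 10.9 FPKM in NOD glands and 99 ± 1.94 FPKM in control glands (SD, n = 3 each) and did not pass (adjusted p = 0.0727).

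The promoters of 3 genes that rose are shown because they hold the ER stress response element, the sequence through which ATF6 is known to act in the unfolded protein response. They are 300 bases from RefSeq on GRCm38.p6, 5′ to 3′ on the gene's strand, from 250 bases before to 50 after the start, in lower case with matches to the element in capitals. The element was searched on both strands as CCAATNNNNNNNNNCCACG or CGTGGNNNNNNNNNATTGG. Calr lies at chr8:84846882-84847181 on the minus strand, Hspa5 at chr2:34771840-34772139 on the plus strand and Creld2 at chr15:88819396-88819695 on the plus strand. Hspa5 and Creld2 were chosen after their values were seen.
Calr: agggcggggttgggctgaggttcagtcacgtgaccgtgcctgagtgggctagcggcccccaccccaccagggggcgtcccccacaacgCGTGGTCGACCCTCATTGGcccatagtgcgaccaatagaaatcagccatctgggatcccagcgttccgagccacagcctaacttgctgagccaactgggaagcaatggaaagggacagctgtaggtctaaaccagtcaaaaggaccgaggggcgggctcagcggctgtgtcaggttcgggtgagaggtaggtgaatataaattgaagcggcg
Hspa5: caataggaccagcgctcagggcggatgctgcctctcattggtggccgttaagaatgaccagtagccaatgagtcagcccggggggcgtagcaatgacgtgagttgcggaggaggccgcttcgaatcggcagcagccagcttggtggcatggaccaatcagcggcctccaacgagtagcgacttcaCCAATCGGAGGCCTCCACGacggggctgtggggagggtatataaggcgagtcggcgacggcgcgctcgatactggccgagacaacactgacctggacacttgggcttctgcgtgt
Creld2: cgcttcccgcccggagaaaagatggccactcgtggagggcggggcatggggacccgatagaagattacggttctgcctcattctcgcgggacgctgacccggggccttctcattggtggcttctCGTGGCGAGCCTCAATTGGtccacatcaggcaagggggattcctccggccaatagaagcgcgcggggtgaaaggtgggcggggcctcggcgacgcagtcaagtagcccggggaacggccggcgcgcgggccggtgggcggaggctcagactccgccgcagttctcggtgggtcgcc
Counted from the transcription start, the match begins at position −162 in Calr, −65 in Hspa5 and −126 in Creld2. It was found in 0.119% of all 32851 promoters, in 0.162% of those of tested genes, in 1.96% of those of called higher genes and in 0.0459% of those of called lower genes. In the list of chaperones and unfolded protein response genes, 9 of 25 promoters held it (36%), from 24 of the 30 genes that were matched.

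Beside these promoters, Hspa5, the chaperone BiP, was at 266, 247 and 261 FPKM in the NOD libraries, against 187, 191 and 171 FPKM in the control libraries (log2 change 0.49 ± 0.13 (SE), limma adjusted p = 0.0133). Creld2, a stress-induced disulphide isomerase, was at 105, 101 and 129 FPKM in the NOD libraries, against 72.9, 78.3 and 83.2 FPKM in the control libraries (log2 change 0.50 ± 0.14 (SE), limma adjusted p = 0.0215). Both were higher in each NOD library than in each control library, although Creld2 no longer passed without control library 1 (adjusted p = 0.0683) or without NOD library 3 (0.0839). In the same list the promoters of Hsp90b1 and Derl3, which rose, held the element too, although the rise of Derl3 depended on single libraries, as given below. So did those of Canx, Dnajc3, Pdia6 and Syvn1. Canx, Pdia6 (log2 change 0.10, limma adjusted p = 0.526) and Syvn1 (0.06, 0.87) did not pass the test.

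Steps before and after folding moved less. Of 24 tested genes of the translocon and signal peptide processing, 1 rose and 3 fell (1 and 2 with the median off), and the median of −0.05 turned positive under each of the 3 scalings tried. Srp9, a subunit of the signal recognition particle, was at 9.88, 9.58 and 10.8 FPKM in the NOD libraries, against 23.2, 27.6 and 31.4 FPKM in the control libraries (log2 change -1.35 ± 0.11 (SE), limma adjusted p = 3.77e-06). Sec11a, the catalytic subunit of signal peptidase, was at 20.9, 18.4 and 19.1 FPKM in the NOD libraries, against 11.9, 13.6 and 12.7 FPKM in the control libraries (log2 change 0.58 ± 0.14 (SE), limma adjusted p = 0.012). The groups were separate for both genes, which moved in opposite directions. Tusc3, a subunit of the oligosaccharyltransferase that attaches sugars, was the 1 gene of 12 tested in that complex to pass, at a log2 change of 0.57, adjusted p = 0.00173. In the coats of transport vesicles and their cargo receptors, 3 of 27 rose and 1 fell (7 rose with the median off), and the median of −0.01 turned positive under the 3 scalings. Kdelr3, which returns escaped chaperones to the reticulum, was at 27.3, 31.9 and 29.7 FPKM in the NOD libraries, against 11.7, 15.4 and 12.9 FPKM in the control libraries. It stood apart from the rest of that list (log2 change 1.10 ± 0.11 (SE), limma adjusted p = 3.27e-05). Of 20 genes of granule exocytosis, 1 rose and 5 fell (3 and 2 with the median off). In the test as made these shares were close to those of all genes, 5.24% higher and 22.2% lower. Rab26, a small GTPase of secretory granules, was at 5.11, 5.04 and 4.03 FPKM in the NOD libraries, against 11.8, 8.57 and 10.8 FPKM in the control libraries (log2 change -0.99 ± 0.14 (SE), limma adjusted p = 0.000381). The groups were separate, but the gene was no longer called when its transcript values were summed (adjusted p = 0.457).

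Fluid and ion secretion tended lower. Of 19 tested channels, pumps and their regulators, 2 rose and 8 fell (3 and 5 with the median off), around a median of −0.27. Fxyd3, a regulator of the sodium pump, was at 7.07, 5.82 and 5.62 FPKM in the NOD libraries, against 34.6, 34.7 and 42.6 FPKM in the control libraries. It fell furthest of the list (log2 change -2.42 ± 0.16 (SE), limma adjusted p = 7.85e-07). Car2, a carbonic anhydrase of duct cells, was at 1.78, 1.65 and 1.93 FPKM in the NOD libraries, against 3.98, 3.35 and 4.11 FPKM in the control libraries (log2 change -0.79 ± 0.13 (SE), limma adjusted p = 0.000932). Orai1, the plasma membrane calcium channel opened by store depletion, had a log2 change of -0.65, adjusted p = 0.00834. Aqp8, a water channel, was at 145, 161 and 146 FPKM in the NOD libraries, against 73.9, 67.6 and 73.4 FPKM in the control libraries. It went the other way with no overlap (log2 change 1.06 ± 0.09 (SE), limma adjusted p = 4.12e-06). Aqp5, the water channel of the acinar apical membrane, was at 161, 163 and 171 FPKM in the NOD libraries, against 187, 203 and 234 FPKM in the control libraries, and its fall (log2 change -0.33 ± 0.10 (SE), limma adjusted p = 0.0324) lost significance with the median off, under the 3 scalings and without any single library other than control library 1 (adjusted p = 0.0501 to 0.112). Among 16 secretagogue receptors and signalling genes, 1 rose and 2 fell (1 and 1 with the median off), the falls being a smaller share than among all genes. The leading one was Prkca, protein kinase C alpha, which was at 1.15, 0.817 and 1.12 FPKM in the NOD libraries, against 2.78, 3.5 and 2.67 FPKM in the control libraries (log2 change -0.97 ± 0.11 (SE), limma adjusted p = 5.31e-05).

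Markers of the gland's own cell types differed by compartment. Of 9 acinar markers, 4 rose and 1 fell (4 rose with the median off), around a median of 0.25. Pnliprp1, a lipase-related secreted protein, was at 3714, 4296 and 4049.7 FPKM in the NOD libraries, against 817, 1800.1 and 1108 FPKM in the control libraries (log2 change 1.77 ± 0.21 (SE), limma adjusted p = 0.000106). Nupr1, a stress-induced nuclear protein, was at 438, 294 and 339 FPKM in the NOD libraries, against 108, 198 and 128 FPKM in the control libraries (log2 change 1.32 ± 0.24 (SE), limma adjusted p = 0.00187). Both groups were apart, with the control libraries more scattered, in proportion to their level, than the NOD libraries. Of 10 duct markers, 4 fell (3 with the median off), around a median of −0.25. Sox9, a transcription factor of duct cells, was at 31.6, 34.4 and 32.7 FPKM in the NOD libraries, against 47.3, 54.6 and 48.4 FPKM in the control libraries (log2 change -0.59 ± 0.08 (SE), limma adjusted p = 0.000193). Wfdc2, a secreted protein of ductal epithelium, was at 2.81, 1.77 and 1.87 FPKM in the NOD libraries, against 4.4, 5.63 and 5.98 FPKM in the control libraries (log2 change -1.02 ± 0.26 (SE), limma adjusted p = 0.0131). The 8 tested endothelial markers and the 5 mast cell markers did not pass the limma test, and 0 of them had an unadjusted p under 0.05. The 6 adipocyte markers did not pass either, and 1 had an unadjusted p under 0.05. Of 11 fibroblast markers, Pi16 rose and Thy1 fell, both also with the median off, but Thy1 no longer passed without NOD library 3 (adjusted p = 0.0511). Pi16, found on adventitial fibroblasts, was at 5.63, 6.06 and 4.08 FPKM in the NOD libraries, against 2.12, 0.9 and 0.993 FPKM in the control libraries (log2 change 1.44 ± 0.24 (SE), limma adjusted p = 0.00108).

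Macrophage and monocyte markers were lower in NOD glands. Of 14 tested macrophage and monocyte markers, 9 fell (7 with the median off), around a median of −0.86, and the list summed to 106 to 114 FPKM in NOD libraries and 175 to 291 FPKM in control libraries. Fcgr3, an IgG receptor, was at 2.34, 1.79 and 1.4 FPKM in the NOD libraries, against 7.82, 9.77 and 5.32 FPKM in the control libraries (log2 change -1.58 ± 0.21 (SE), limma adjusted p = 0.00019). Aif1, a macrophage calcium-binding protein, was at 0.745, 0.829 and 1.34 FPKM in the NOD libraries, against 3.5, 4.79 and 3.34 FPKM in the control libraries (log2 change -1.31 ± 0.18 (SE), limma adjusted p = 0.00031). C1qc, a chain of the complement component that macrophages make, was at 7.79, 7.43 and 6.13 FPKM in the NOD libraries, against 23.2, 26.5 and 14.8 FPKM in the control libraries (log2 change -1.44 ± 0.22 (SE), limma adjusted p = 0.000582). For each of these genes the highest NOD value was below the lowest control value. Mrc1, the mannose receptor of resident macrophages, averaged 1.95 ± 0.192 FPKM in NOD glands and 1.79 ± 0.642 FPKM in control glands (SD, n = 3 each) and did not pass (adjusted p = 0.662). Nkg7 of killer cells, Itgax of dendritic cells and Ccl5, a chemokine of T and NK cells, also fell, and Nkg7 was at 0, 0 and 0.622 FPKM in the NOD libraries, against 2.74, 1.94 and 3.03 FPKM in the control libraries (log2 change -1.59 ± 0.27 (SE), limma adjusted p = 0.00115). These are single genes. The lists of NK cells, of dendritic cells and of lymphoid chemokines each had 2 tested genes, of which 1 fell (1 with the median off). The other gene of each list did not pass, at log2 changes of -0.34, -0.48 and 0.45 in that order.

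No T cell, B cell or neutrophil marker passed the expression filter in this comparison. The 4 T cell markers with values summed to 0.355 to 0.887 FPKM in NOD libraries and to 1.79 to 2.24 FPKM in control libraries. The 1 B cell marker with values, Cd79a, stood at 0 to 0.492 FPKM in NOD libraries and 0 to 0.0964 FPKM in control libraries. Both groups were thus close to 0 for these markers. Among 7 tested plasma cell markers, 3 rose and 1 fell (3 rose with the median off), and the list's median of −0.05 turned positive under the 3 scalings. Jchain, which joins the units of secreted IgA and IgM, was at 35, 36.6 and 23.9 FPKM in the NOD libraries, against 2.73, 2.09 and 1.71 FPKM in the control libraries (log2 change 3.36 ± 0.17 (SE), limma adjusted p = 1.00e-07). Mzb1, which helps plasma cells assemble antibody, was at 2.13, 2.01 and 1.72 FPKM in the NOD libraries, against 0, 0.125 and 0.325 FPKM in the control libraries (log2 change 1.37 ± 0.18 (SE), limma adjusted p = 0.000255). The groups were separate for both, whereas Sdc1 (-0.05, adjusted p = 0.781) and Xbp1 (-0.11, 0.383) did not pass, and secretory acinar cells also make Derl3 and Xbp1. Derl3, the third marker that rose, no longer passed without any single library other than control library 3 (adjusted p = 0.0503 to 0.0887).

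**Figure D4:**
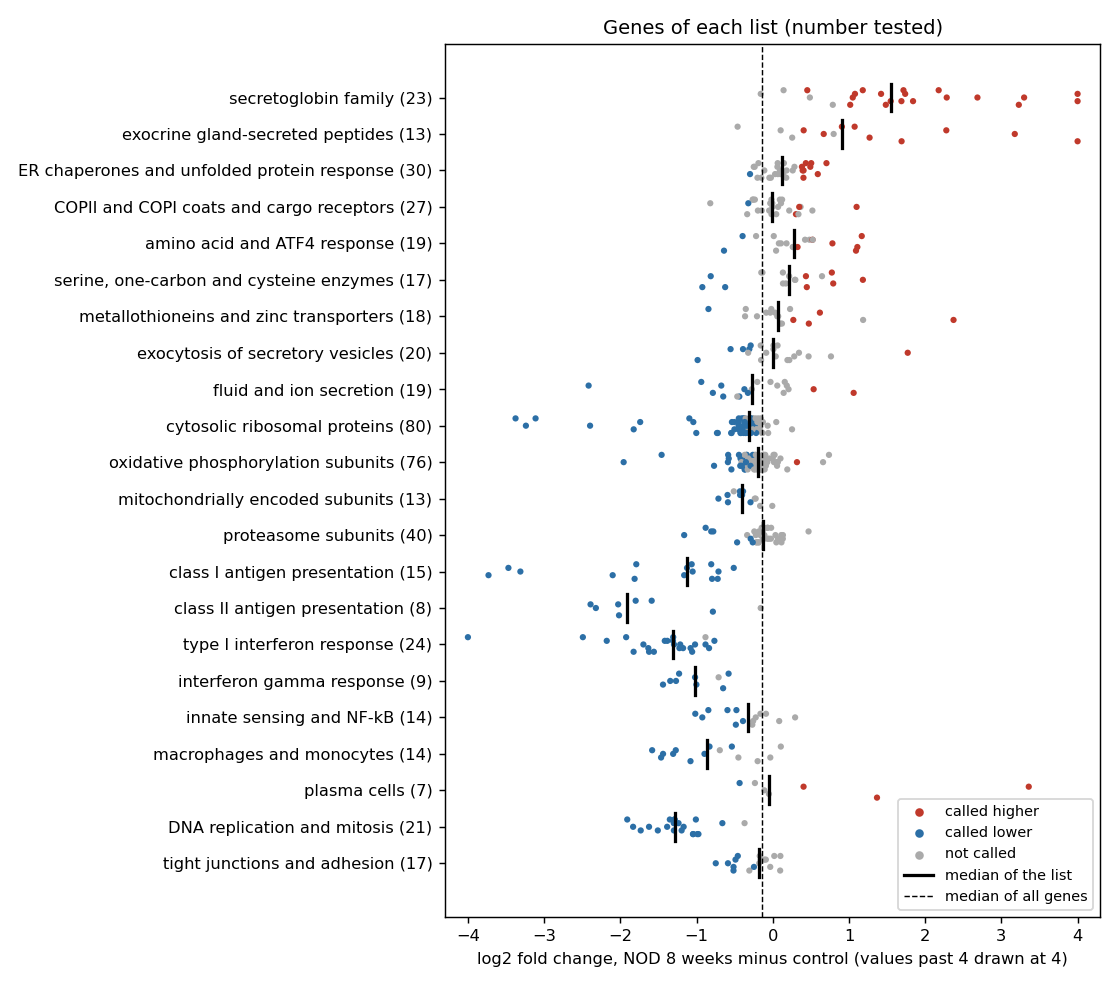
Each point is a tested gene, placed by its log2 fold change, NOD 8 weeks minus control, in 1 of 22 gene lists, with the number tested in brackets; values beyond 4 in either direction are drawn at 4. Red points were called higher, blue points lower and grey points not called, thick bars mark list medians, and the dashed line is the median of all genes, with class I, class II, interferon and replication genes to its left and secretoglobins and exocrine gland-secreted peptides to its right.

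Antigen presentation genes were lower in NOD glands. All 15 tested genes of the class I pathway, which shows fragments of internal proteins to killer T cells, fell (14 with the median off), around a median of −1.12 beside −0.15 for all genes. H2-T22, a non-classical class I molecule, was at 0.892, 1.55 and 0.736 FPKM in the NOD libraries, against 26.3, 23.6 and 28 FPKM in the control libraries (log2 change -3.73 ± 0.14 (SE), limma adjusted p = 1.21e-08). H2-Q7, another of that kind, was at 0.36, 0.242 and 0.279 FPKM in the NOD libraries, against 3.8, 3.97 and 2.93 FPKM in the control libraries (log2 change -1.81 ± 0.14 (SE), limma adjusted p = 2.79e-06). Both were near 0 in NOD glands, with no overlap. H2-K1, a classical molecule (ENSMUSG00000061232.15, chromosome 17, 33996017 to 34000333), was at 5.82, 7.06 and 4.09 FPKM in the NOD libraries, against 73.2, 77.9 and 63.8 FPKM in the control libraries (log2 change -3.47 ± 0.18 (SE), limma adjusted p = 1.17e-07). Its main transcript, ENSMUST00000025181.16, showed the same, at 7.64, 9.01 and 5.32 FPKM in NOD libraries and 105, 114 and 92.1 FPKM in control libraries. Of 8 tested class II genes, which show engulfed proteins to helper T cells, 7 fell (7 with the median off), around a median of −1.91. H2-DMb1, part of the molecule that loads class II with peptide, was at 0.926, 0.986 and 0.618 FPKM in the NOD libraries, against 7.86, 9.14 and 7.59 FPKM in the control libraries (log2 change -2.32 ± 0.12 (SE), limma adjusted p = 1.22e-07). H2-Ab1 was at 14.6, 15.5 and 16.1 FPKM in the NOD libraries, against 65.1, 78.7 and 55.8 FPKM in the control libraries (log2 change -2.03 ± 0.15 (SE), limma adjusted p = 2.39e-06). H2-Eb1 was at 23.9, 31.8 and 29.7 FPKM in the NOD libraries, against 103, 117 and 85.1 FPKM in the control libraries (log2 change -1.80 ± 0.21 (SE), limma adjusted p = 9.24e-05). Each of them fell with separate groups, and the summed class II level was 138 to 151 FPKM in NOD libraries and 419 to 628 FPKM in control libraries. NOD mice carry their own form of this gene complex and the processing notes name the build GRCm38, so a lower level and reads that match the reference sequence less well cannot be told apart for these genes.

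Genes induced by type I interferon fell as a group. Of 24 tested, 23 fell (20 with the median off), around a median of −1.31, and the summed level of the list was 113 to 164 FPKM in NOD libraries and 673 to 839 FPKM in control libraries. In all 24 the NOD libraries lay below the control libraries, as they did in 33.5% of all genes. Ly6e, a membrane protein induced by interferon (ENSMUSG00000022587.14, chromosome 15, 74955051 to 74959905), supplied much of that sum. It was at 3.46, 1.26 and 1.22 FPKM in the NOD libraries, against 374, 408 and 337 FPKM in the control libraries (log2 change -7.05 ± 0.29 (SE), limma adjusted p = 1.82e-08). A single transcript, ENSMUST00000191436.6, carried it, at 8.07, 2.18 and 2.32 FPKM in NOD libraries and 600.2, 1088 and 982 FPKM in control libraries. As for the H2 genes, a lower level and a poorer match of NOD reads to the reference cannot be told apart for Ly6e. Trim25, which helps activate the RNA sensor RIG-I, was at 1.01, 0.617 and 0.548 FPKM in the NOD libraries, against 9.15, 9.77 and 7.17 FPKM in the control libraries (log2 change -2.49 ± 0.17 (SE), limma adjusted p = 1.17e-06). Ifi27 was at 69.3, 60 and 56.1 FPKM in the NOD libraries, against 171, 168 and 159.6 FPKM in the control libraries (log2 change -1.42 ± 0.12 (SE), limma adjusted p = 9.42e-06). The falls ran through the list beyond Ly6e, and the gene that missed the threshold was Isg15, a ubiquitin-like protein, at a log2 change of -0.88, adjusted p = 0.0532.

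The promoters of 3 of these genes are shown because they hold the interferon-stimulated response element, which the factor ISGF3 is known to bind after interferon. They are 300 bases from RefSeq on GRCm38.p6, written as above, with matches in capitals. The element was searched on both strands as GAAANNGAAA or TTTCNNTTTC, and overlapping matches were joined in the capitals. Bst2 lies at chr8:71537423-71537722 on the minus strand, Oas1a at chr5:120907476-120907775 on the minus strand and Ifit1 at chr19:34640639-34640938 on the plus strand. Oas1a and Ifit1 were chosen after their values were seen.
Bst2: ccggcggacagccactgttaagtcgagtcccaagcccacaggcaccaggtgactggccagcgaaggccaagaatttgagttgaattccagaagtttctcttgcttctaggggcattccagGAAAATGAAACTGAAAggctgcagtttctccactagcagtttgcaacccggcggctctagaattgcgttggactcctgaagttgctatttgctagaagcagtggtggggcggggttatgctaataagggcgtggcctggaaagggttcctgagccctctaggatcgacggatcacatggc
Oas1a: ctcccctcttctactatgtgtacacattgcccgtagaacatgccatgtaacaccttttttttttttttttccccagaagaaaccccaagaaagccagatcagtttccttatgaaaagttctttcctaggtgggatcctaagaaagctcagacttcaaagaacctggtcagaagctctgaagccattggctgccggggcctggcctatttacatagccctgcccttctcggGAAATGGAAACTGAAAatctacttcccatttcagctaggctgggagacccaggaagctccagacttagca
Ifit1: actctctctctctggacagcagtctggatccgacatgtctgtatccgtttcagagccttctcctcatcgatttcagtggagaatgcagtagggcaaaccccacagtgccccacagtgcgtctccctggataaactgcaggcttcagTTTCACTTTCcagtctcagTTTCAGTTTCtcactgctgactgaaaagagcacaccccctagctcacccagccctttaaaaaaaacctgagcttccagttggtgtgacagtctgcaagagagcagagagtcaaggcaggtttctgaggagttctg
Each holds 2 matches, at positions −130 and −124 in Bst2 and −20 and −14 in Oas1a, where they overlap, and at −104 and −85 in Ifit1, where they do not. The element was found in 3.44% of all promoters, in 4.36% of those of called lower genes, in 3.27% of those of called higher genes and in 2.72% of those of genes not called. Among genes lower with the median off the share was 6.27%. In the type I interferon list 9 of 17 promoters held it (52.9%), from 16 of the 24 genes that were matched.

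Beside these promoters, Bst2, a protein that tethers budding virus to the cell, was at 9.02, 5.4 and 8.21 FPKM in the NOD libraries, against 30.4, 30.1 and 25.9 FPKM in the control libraries (log2 change -1.83 ± 0.16 (SE), limma adjusted p = 1.15e-05). Oas1a, a synthetase that senses double-stranded RNA, was at 0.776, 0.583 and 0.812 FPKM in the NOD libraries, against 7.51, 5.93 and 3.71 FPKM in the control libraries (log2 change -1.92 ± 0.29 (SE), limma adjusted p = 0.000505). Ifit1, which binds viral RNA, was at 1.45, 0.932 and 1.04 FPKM in the NOD libraries, against 4.72, 10 and 2.93 FPKM in the control libraries (log2 change -1.56 ± 0.40 (SE), limma adjusted p = 0.0138). All 3 were lower in every NOD library than in any control library, and the control libraries of Ifit1 were the most scattered. Isg15, whose change did not pass the test, also held the element.

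Genes of the interferon gamma response and of innate sensing were lower in smaller numbers. Of 9 tested interferon gamma genes, 8 fell (6 with the median off), around a median of −1.02. Gbp3, a guanylate-binding protein, was at 0.36, 0.327 and 0.607 FPKM in the NOD libraries, against 2.19, 3.75 and 1.68 FPKM in the control libraries (log2 change -1.27 ± 0.19 (SE), limma adjusted p = 0.000632). Irf8, a transcription factor of myeloid cells, was at 0.863, 0.917 and 0.911 FPKM in the NOD libraries, against 1.84, 2.21 and 1.9 FPKM in the control libraries (log2 change -0.65 ± 0.11 (SE), limma adjusted p = 0.000965). Both were low in absolute terms, and the groups did not overlap. Of 14 genes of innate sensing and NF-kB, 7 fell (4 with the median off), around a median of −0.33. Nfkbia, the inhibitor that NF-kB itself induces, was at 22.3, 19.7 and 24.3 FPKM in the NOD libraries, against 42.2, 46.2 and 48.6 FPKM in the control libraries (log2 change -1.02 ± 0.09 (SE), limma adjusted p = 1.26e-05). Cxcl1, a neutrophil chemokine, was at 0.452, 0.0974 and 0.439 FPKM in the NOD libraries, against 2, 1.35 and 1.22 FPKM in the control libraries (log2 change -0.92 ± 0.18 (SE), limma adjusted p = 0.003). In complement the 3 of 13 genes that fell (3 with the median off) were the C1q chains C1qa, C1qb and C1qc, which the macrophage list also holds. In the test as made that share was close to the 22.2% of all genes. Trim21, the Ro52 autoantigen of Sjögren's syndrome and itself induced by interferon, was at 1.02, 0.978 and 0.645 FPKM in the NOD libraries, against 2.44, 3.05 and 1.71 FPKM in the control libraries. It fell (log2 change -0.84 ± 0.17 (SE), limma adjusted p = 0.00419). Of the 8 autoantigen genes tested 2 fell (1 with the median off, when 2 others rose), falls close to the share among all genes both ways.

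Cell division genes were lower in NOD glands. Of 21 tested genes of DNA replication and mitosis, 20 fell (20 with the median off), around a median of −1.29. Uhrf1, which copies DNA methylation at replication, was at 0.722, 0.897 and 0.504 FPKM in the NOD libraries, against 7.44, 2.87 and 6.99 FPKM in the control libraries (log2 change -1.91 ± 0.26 (SE), limma adjusted p = 0.000262). Top2a, the topoisomerase that untangles replicated DNA, was at 0.321, 0.38 and 0.322 FPKM in the NOD libraries, against 3.15, 1.44 and 2.53 FPKM in the control libraries (log2 change -1.30 ± 0.16 (SE), limma adjusted p = 0.000131). Pcna, the sliding clamp of DNA polymerase, was at 9.07, 7.58 and 7.92 FPKM in the NOD libraries, against 25.9, 15.2 and 20.2 FPKM in the control libraries. The control libraries were uneven, library 2 being lowest in each of these genes, yet it stayed above all NOD libraries. Pcna fell by a log2 change of -1.20 with an adjusted p of 0.000287, and Mki67, the proliferation marker Ki-67, averaged 0.409 ± 0.177 FPKM in NOD glands and 2.83 ± 1.31 FPKM in control glands (SD, n = 3 each), with an adjusted p of 0.000899.

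Histone genes of the replication-dependent kind did not fall with them. This list was added after values were seen, and of its 31 tested genes 16 rose and 8 fell (16 and 6 with the median off), around a median of 0.51. Hist1h4i was at 76.1, 73.8 and 66.3 FPKM in the NOD libraries, against 14.6, 15.3 and 11.7 FPKM in the control libraries (log2 change 2.30 ± 0.13 (SE), limma adjusted p = 1.75e-07). Hist1h2bk was at 7.6, 7.9 and 6.07 FPKM in the NOD libraries, against 0.856, 0.991 and 0.457 FPKM in the control libraries (log2 change 2.22 ± 0.16 (SE), limma adjusted p = 1.55e-06). Hist1h2bj was at 3.62, 4.99 and 3.75 FPKM in the NOD libraries, against 0.0492, 0.186 and 0.417 FPKM in the control libraries (log2 change 2.07 ± 0.19 (SE), limma adjusted p = 1.07e-05). The NOD libraries were several times higher than the control libraries in each, while Hist1h2af went down (log2 change -1.59, adjusted p = 0.00218). Near-identical copies exist for 21 of the 31 genes, so the level of any single histone gene is uncertain.

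Cytosolic ribosomal protein genes were lower, in most cases by little. Of 80 cytosolic ribosomal protein genes, 47 fell (17 with the median off), around a median of −0.31. Rpl34 (ENSMUSG00000062006.12, chromosome 3, 130726831 to 130730398) was at 8.04, 6.48 and 7.07 FPKM in the NOD libraries, against 74, 72.9 and 81.8 FPKM in the control libraries (log2 change -3.24 ± 0.10 (SE), limma adjusted p = 1.18e-09). Its main transcript, ENSMUST00000079085.10, was at 25.6, 21.1 and 21 FPKM in NOD libraries and 298, 294 and 332 FPKM in control libraries. Rps18 was at 13.9, 23.7 and 12.7 FPKM in the NOD libraries, against 147, 148 and 147 FPKM in the control libraries (log2 change -3.11 ± 0.19 (SE), limma adjusted p = 5.62e-07). Rpl35a (log2 change -2.40), Rpl30 (-1.82) and Rpl21 (-1.74) were also among the largest falls of the list. Rpl29 was at 8.84, 6.58 and 8.95 FPKM in the NOD libraries, against 72.9, 107 and 103 FPKM in the control libraries, and its transcripts went both ways. ENSMUST00000150576.7 was at 1.88, 0 and 0 FPKM in NOD libraries and 75.7, 67.2 and 57.5 FPKM in control libraries, and ENSMUST00000213448.1 was at 9.22, 6.55 and 11.5 FPKM in NOD libraries and 2.34, 3.34 and 4.67 FPKM in control libraries. Rpl29 has 6 near-identical copies and 27 of the 80 genes have at least 1, so these values are uncertain. No such copy was found for Rpl34, Rps18, Rpl35a or Rpl30. The search asked for a match over at least 50% of the longest transcript, so it could miss shorter copies. Whether reads of these genes were divided with such copies was not tested, nor whether reads from NOD alleles matched the reference less well in ribosomal genes. Of 78 mitochondrial ribosomal protein genes, 13 fell (6 with the median off, when 1 rose), a smaller share than the 22.2% (10.9%) of all genes tested, around a median of −0.14 that turned positive with library medians centred.

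Of 76 nuclear subunits of oxidative phosphorylation, 1 rose and 20 fell (1 and 9 with the median off), shares close to those of all genes, around a median of −0.20. Uqcrb, a subunit of complex III, was at 86.5, 74.6 and 91.3 FPKM in the NOD libraries, against 242, 212 and 244 FPKM in the control libraries (log2 change -1.46 ± 0.11 (SE), limma adjusted p = 2.79e-06). Ndufs5, a subunit of complex I, was at 12.7, 8.09 and 11.6 FPKM in the NOD libraries, against 37, 40.9 and 57 FPKM in the control libraries (log2 change -1.96 ± 0.17 (SE), limma adjusted p = 9.59e-06). Both fell with no overlap and well beyond the rest of the list. Of the 13 subunits encoded in mitochondria, 8 fell (4 with the median off), around a median of −0.40, and together they took 1.97% to 2.64% of listed FPKM in NOD libraries and 3.08% to 3.81% in control libraries. mt-Nd4 was at 1169, 1389 and 1062 FPKM in the NOD libraries, against 1745, 1965 and 1710.0 FPKM in the control libraries (log2 change -0.59 ± 0.11 (SE), limma adjusted p = 0.00269). Of 14 glycolytic genes, 5 fell (3 with the median off), and Gapdh was at 9.56, 8.12 and 9.69 FPKM in the NOD libraries, against 21, 18.6 and 14.8 FPKM in the control libraries (log2 change -0.91 ± 0.13 (SE), limma adjusted p = 0.000357). Hk2, a hexokinase, had a log2 change of -0.53, adjusted p = 0.00136. Near-identical copies were not sought for Uqcrb, Ndufs5, Gapdh or Hk2, so reads divided with copies were not tested for them.

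Proteasome genes fell no more often than all genes. Of 40 proteasome subunits and activators, 7 fell (3 with the median off), a smaller share than the 22.2% (10.9%) of all genes tested, around a median of −0.13 that turned positive with library medians centred and with the rescaling. Psmb8, an inducible subunit of the immunoproteasome, was at 2.56, 1.23 and 2.24 FPKM in the NOD libraries, against 5.09, 6.83 and 5.05 FPKM in the control libraries (log2 change -1.16 ± 0.21 (SE), limma adjusted p = 0.00182). Psmb5, the constitutive counterpart of Psmb8, was at 49, 48.7 and 52.6 FPKM in the NOD libraries, against 93.7, 79.9 and 107 FPKM in the control libraries (log2 change -0.88 ± 0.10 (SE), limma adjusted p = 7.84e-05). Psme1, part of the interferon-induced activator, was at 6.8, 6.53 and 7.09 FPKM in the NOD libraries, against 11.6, 15.3 and 10.7 FPKM in the control libraries (log2 change -0.78 ± 0.12 (SE), limma adjusted p = 0.000621). The groups were separate for all of these, constitutive and inducible alike. Of 12 cathepsins, the proteases of lysosomes, 5 fell (3 with the median off, when 1 rose). Ctss, cathepsin S, which trims the class II invariant chain and is raised in tears in Sjögren's syndrome, was at 12.5, 9.83 and 10.8 FPKM in the NOD libraries, against 54.1, 59.1 and 33.6 FPKM in the control libraries (log2 change -2.02 ± 0.27 (SE), limma adjusted p = 0.000214). Of 23 other lysosomal genes 4 fell (2 with the median off, when 1 rose), also a smaller share than among all genes, led by Man2b1, a lysosomal mannosidase, at a log2 change of -1.01, adjusted p = 0.000352.

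Metals, amino acids and one-carbon enzymes held a group of rises. Of 18 metallothioneins and zinc transporters, 4 rose and 1 fell (5 and 1 with the median off), around a median of 0.07. Mt2, a metallothionein that binds zinc and copper, was at 53.9, 44.8 and 55.7 FPKM in the NOD libraries, against 12.4, 5.52 and 10.8 FPKM in the control libraries. The lowest NOD value was several times the highest control value (log2 change 2.37 ± 0.25 (SE), limma adjusted p = 3.48e-05). Slc30a4, which moves zinc into vesicles, was at 29.4, 30.7 and 24.5 FPKM in the NOD libraries, against 17.2, 22.2 and 15.1 FPKM in the control libraries (log2 change 0.62 ± 0.14 (SE), limma adjusted p = 0.00656). Slc39a8, which brings zinc and manganese into the cell, was at 3.56, 3.11 and 3.08 FPKM in the NOD libraries, against 6.53, 7.28 and 6.09 FPKM in the control libraries (log2 change -0.84 ± 0.11 (SE), limma adjusted p = 0.000215). These transporters moved in opposite directions. The Mt2 promoter (chr8:94172368-94172667, plus strand, 300 bases from RefSeq on GRCm38.p6, written as above) is shown with the metal response element in capitals, to which the zinc-sensing factor MTF1 is known to bind. The element was searched as TGCACNC or TGCGCNC and on the other strand as GNGTGCA or GNGCGCA, with no overlap among the matches.
Mt2: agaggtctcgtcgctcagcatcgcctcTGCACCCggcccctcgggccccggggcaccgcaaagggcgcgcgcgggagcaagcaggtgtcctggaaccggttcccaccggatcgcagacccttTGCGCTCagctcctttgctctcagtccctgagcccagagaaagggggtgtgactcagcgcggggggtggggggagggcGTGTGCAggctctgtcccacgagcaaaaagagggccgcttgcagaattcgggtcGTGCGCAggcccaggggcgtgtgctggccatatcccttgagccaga
It holds 4 matches, which begin at positions −223, −128, −50 and 4 from the transcription start. The element is common, being found in 25.7% of all promoters, in 35.8% of those of tested genes and in 10 of 20 promoters (50%) of the metallothionein and zinc list.

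Of 19 genes of the amino acid response governed by ATF4, a factor made more when translation is slowed by stress, 6 rose and 2 fell (11 and 1 with the median off), around a median of 0.27. Atf5, a related factor, was at 36, 32 and 26.4 FPKM in the NOD libraries, against 13.6, 16.3 and 10.7 FPKM in the control libraries (log2 change 1.17 ± 0.20 (SE), limma adjusted p = 0.00151). Trib3, a pseudokinase induced by ATF4, was at 3.5, 3.38 and 3.97 FPKM in the NOD libraries, against 0.925, 0.642 and 2.2 FPKM in the control libraries (log2 change 1.09 ± 0.20 (SE), limma adjusted p = 0.00181). Slc38a2, a transporter of small neutral amino acids, was at 14.8, 16.4 and 12.8 FPKM in the NOD libraries, against 27.2, 22 and 21.1 FPKM in the control libraries (log2 change -0.64 ± 0.14 (SE), limma adjusted p = 0.00621). The rises of Atf5 and Trib3 and the fall of Slc38a2 were each without overlap. Of 17 serine, one-carbon and cysteine enzymes, 5 rose and 3 fell (8 and 3 with the median off), around a median of 0.21. Sardh, which takes a one-carbon unit from sarcosine in mitochondria, was at 8.88, 9.6 and 9.63 FPKM in the NOD libraries, against 4.35, 3.5 and 2.95 FPKM in the control libraries (log2 change 1.18 ± 0.14 (SE), limma adjusted p = 7.76e-05). Aldh1l2, a mitochondrial folate enzyme, rose (log2 change 0.79, adjusted p = 0.00281) and Ahcy, which clears the product of methylation, fell (-0.62, adjusted p = 0.00485).

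Lipid genes moved in both directions, in 2 of 3 lists no more often than all genes. Of 19 genes of triglyceride and fatty acid synthesis, 1 rose and 4 fell (2 and 3 with the median off), around a median of −0.08 that turned positive under the 3 scalings. In the test as made these shares were close to those of all genes, 5.24% higher and 22.2% lower. Dgat2, described above, was the gene that rose. Me1, which makes NADPH for fatty acid synthesis, was at 40.3, 42.1 and 36.8 FPKM in the NOD libraries, against 62.5, 66.6 and 64.9 FPKM in the control libraries (log2 change -0.69 ± 0.09 (SE), limma adjusted p = 0.000158). Plin3, a coat protein of lipid droplets, was at 72.8, 84.9 and 74.1 FPKM in the NOD libraries, against 107, 123 and 108 FPKM in the control libraries (log2 change -0.54 ± 0.08 (SE), limma adjusted p = 0.000699). Of 16 genes of fatty acid oxidation, 4 rose and 2 fell (6 and 2 with the median off), around a median of 0.13. Eci1, an isomerase for unsaturated fatty acids, was at 17.3, 16.9 and 17.2 FPKM in the NOD libraries, against 32, 35.5 and 30.9 FPKM in the control libraries (log2 change -0.90 ± 0.12 (SE), limma adjusted p = 0.0002). Acadl, a dehydrogenase of long chains, was at 57.1, 53.1 and 45.5 FPKM in the NOD libraries, against 87.7, 90.8 and 73.4 FPKM in the control libraries (log2 change -0.68 ± 0.10 (SE), limma adjusted p = 0.000627). Eci1 and Acadl were the 2 that fell, and for both every NOD library lay below every control library. The 4 that rose were a larger share than the 5.24% of all genes, with a log2 change of at most 0.54. Of 20 genes of sterol synthesis and uptake, 4 fell (1 with the median off, when 2 rose), a share close to the 22.2% of all genes. Their median of −0.09 turned positive under the 3 scalings.

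Among 170 solute carriers, 11 rose and 38 fell (22 and 17 with the median off), in the test as made shares close to those of all genes. The median of −0.11 turned positive under the 3 scalings, so no direction can be given to the family. Slc15a2, which takes up short peptides, was at 7.24, 8.49 and 6.2 FPKM in the NOD libraries, against 16.4, 18.8 and 17.7 FPKM in the control libraries (log2 change -1.17 ± 0.10 (SE), limma adjusted p = 8.31e-06). Slc50a1, a sugar carrier, was at 13.2, 11.5 and 13.3 FPKM in the NOD libraries, against 25, 36.9 and 40.5 FPKM in the control libraries (log2 change -1.34 ± 0.15 (SE), limma adjusted p = 6.67e-05). Slc25a29, a mitochondrial carrier of basic amino acids, was at 21.1, 20.4 and 19 FPKM in the NOD libraries, against 10.8, 11.2 and 10.5 FPKM in the control libraries (log2 change 0.84 ± 0.08 (SE), limma adjusted p = 1.10e-05). Slc17a5, which exports sialic acid from lysosomes, was at 41, 41.4 and 35.7 FPKM in the NOD libraries, against 23.4, 25.7 and 23.9 FPKM in the control libraries, and it rose (log2 change 0.67 ± 0.08 (SE), limma adjusted p = 0.000124). All of them were separate between groups. Of 29 glutathione and oxidative stress genes, 4 fell (with the median off 1 rose and the 4 no longer passed), a smaller share than among all genes. Of 17 tight junction and adhesion genes, 7 fell (3 with the median off), around a median of −0.18, led by F11r, the junctional adhesion molecule A, which was at 34.3, 31.7 and 28.1 FPKM in the NOD libraries, against 45.8, 46.6 and 43 FPKM in the control libraries (log2 change -0.51 ± 0.09 (SE), limma adjusted p = 0.00137).

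Few genes differed between the NOD ages. Tested directly in the same limma model, 10 of the 9967 genes differed between the ages at an adjusted p of 0.05 (0.1%), 5 higher and 5 lower at 8 weeks, and 897 had an unadjusted p under 0.05. The count was 6 without NOD library 2 at 8 weeks and 4 with transcript values summed. Of the 10, 6 were also called between NOD glands at 8 weeks and control glands. Scgb1b10, a secretoglobin, was at 4.68, 5.58 and 8.48 FPKM at 8 weeks, 0.502, 0.5 and 0.676 FPKM at 12 weeks and 0, 0.329 and 0 FPKM in control libraries. It was higher at 8 weeks than at either (8 against 12 weeks, log2 change 2.18, limma adjusted p = 0.00107). Igfbp3, a carrier of insulin-like growth factors, was at 12.3, 10.3 and 12.5 FPKM at 8 weeks, 4.57, 4.18 and 3.81 FPKM at 12 weeks and 5.61, 7.75 and 5.19 FPKM in control libraries, with the 8-week libraries on top (log2 change 1.29, limma adjusted p = 0.00378). Calml4, a calmodulin-like protein, was at 2.22, 2.56 and 1.7 FPKM at 8 weeks, 5.32, 5.34 and 4.8 FPKM at 12 weeks and 0.115, 0.0709 and 0.147 FPKM in control libraries. Here the 12-week libraries were highest and control libraries near 0 (log2 change -0.97, limma adjusted p = 0.00447). Pigr was lower at 8 weeks than at 12 weeks (log2 change -1.19, limma adjusted p = 0.0105), at 103, 85 and 82 FPKM at 8 weeks, 221, 207 and 191 FPKM at 12 weeks and 212, 273 and 178 FPKM in control libraries. The 12-week values of Pigr lay within the range of the control values, and the difference by age no longer passed without NOD library 2 (adjusted p = 0.0647). Ifi27 was the 1 gene of the type I interferon list that differed by age, at 69.3, 60 and 56.1 FPKM at 8 weeks and 117, 115 and 119.8 FPKM at 12 weeks (log2 change -0.92, limma adjusted p = 0.0161), and both ages lay below the control libraries. The difference by age in Ifi27 no longer passed without NOD library 2 (adjusted p = 0.0762) or 3 (0.0584), and those of Scgb1b10 and Calml4 no longer passed with a pseudocount of 0.1 (0.136 and 0.193).

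**Figure D5:**
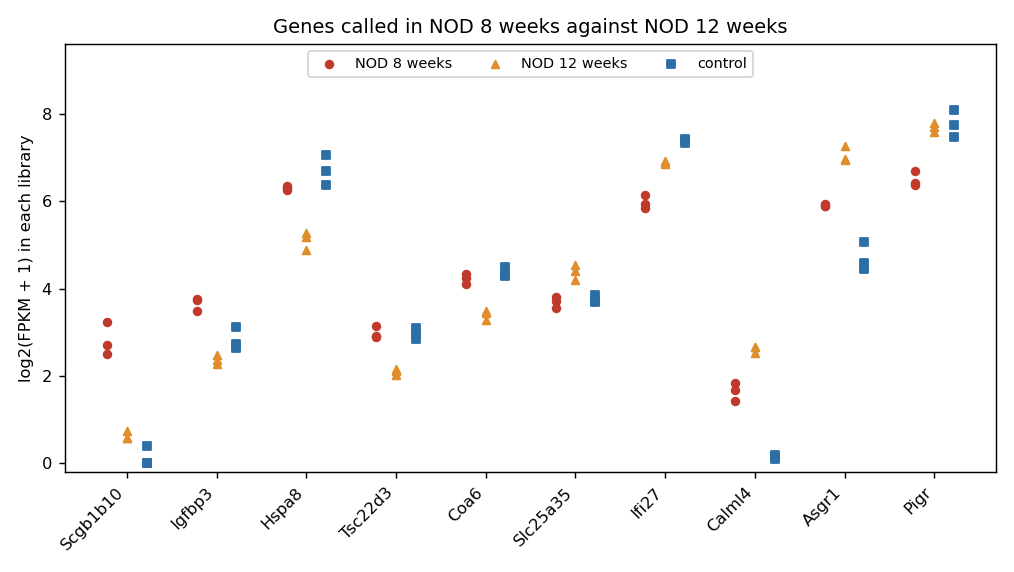
Each point is 1 library on a log2(FPKM + 1) axis for the 10 genes called between NOD glands at 8 and 12 weeks, with NOD 8 weeks as red circles, NOD 12 weeks as orange triangles and control as blue squares. The 5 genes on the left were higher at 8 weeks than at 12 weeks and the 5 on the right lower, and Scgb1b10 and Calml4 were near 0 in the control libraries.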

How the data were processed

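RNA was extracted with Trizol and stranded libraries were made with a KAPA kit, per the labels' protocols. Expression was given by the authors as FPKM, per the file headers, for 11736 genes and, in a further table, for 21202 transcripts. GRCm38 is the build per the submitters' processing notes, which name no aligner, counter or annotation here. Sample titles gave the groups. Reads could not be counted from the deposited FPKM, since 25% to 55.1% of low transcript values in these 6 libraries lay within 0.1 of a whole multiple of a common step.

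Values were analysed as log2(FPKM + 1), a scale that understates the changes of low genes. The filter asked for 1 FPKM or more in 3 or more of the 6 libraries, and the genes left were tested with limma 3.58.1 in R 4.3.3 (trend, moderated statistics) in a model with 4 group means over all 12 libraries and 8 residual degrees of freedom. The Benjamini-Hochberg adjusted p over 9967 genes was held to 0.05. On simulated data for 9967 genes the fit found 86 of the 100 changes of 2-fold and 100 of the 100 changes of 4-fold, with 11 false calls among the genes left unchanged. The simulation used independent normal noise, changed no low genes and held no shift of the median. It changed far fewer genes than were called here, so these figures are not the error rates of this comparison. Errors of log2 changes are standard errors, and those of means are SD over 3 libraries.

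The members and the 72 gene lists were chosen with earlier results of these data known. The histone list was added, and the patterns for proteasome subunits and collagens narrowed, after values were seen. Named genes were the 10 largest rises and falls among called genes whose higher group averaged 5 FPKM or more and whose groups were separate, without predicted genes and immunoglobulin or T cell receptor segments, the 10 most abundant genes, the 5 largest gains and 5 largest losses in FPKM, and up to 4 members of each list with the smallest adjusted p. Genes named outside this rule, mainly other list members, were chosen after their values were seen. Some genes that the rule names are not reported here.

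Alternatives were pseudocounts of 0.1 and 5, no filter, a filter at 5 FPKM or over all 12 libraries, quantile normalization, centred medians, rescaling without the 50 most abundant genes, the 6 libraries alone, a replicate block, a robust prior, a test against 2-fold, transcript values summed, and leaving out each library. Taking off the median of all genes was added after seeing the data. Promoters came from RefSeq (GRCm38.p6), where 7790 of the 9967 tested genes were matched by symbol or identifier, and where a gene had several promoters the one with most matches is shown. Copies were sought with blastn 2.17.0 among GENCODE M21 transcripts, only for histones, cytosolic ribosomal protein genes and the named genes not taken from lists. A copy had to match at least 50% of the gene's longest transcript at 95% identity or more, so shorter copies could be missed. Tables and figures used Python 3.11.15, pandas 2.3.3, numpy 2.4.6 and matplotlib 3.10.9.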

Additional observations from a re-analysis of the deposited data

Results flagged for a closer look

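For 10 genes the level at 8 weeks differed from that at 12 weeks in NOD glands in a direct limma test of the difference, given here as log2 change, 8 minus 12 weeks. Of the 10 genes, 5 were higher at 8 weeks. Scgb1b10 was at 2.18 (adjusted p = 0.00107), Igfbp3 at 1.29 (0.00378), Hspa8 at 1.18 (0.0248), Tsc22d3 at 0.88 (0.00666) and Coa6 at 0.82 (0.0199). The others were lower at 8 weeks, Pigr at -1.19 (0.0105), Asgr1 at -1.15 (0.0337), Calml4 at -0.97 (0.00447), Ifi27 at -0.92 (0.0161) and Slc25a35 at -0.69 (0.0494).

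Asgr1, a subunit of the receptor that clears glycoproteins lacking sialic acid, averaged 59.2 ± 1.11 FPKM at 8 weeks, 133 ± 17.1 FPKM at 12 weeks and 25.5 ± 6.42 FPKM in control glands (SD, n = 3 each). Hspa8, a constitutive chaperone, averaged 77.6 ± 2.46 FPKM at 8 weeks, 33.9 ± 4.88 FPKM at 12 weeks and 105 ± 25.3 FPKM in control glands. Tsc22d3, a gene induced by glucocorticoids, averaged 6.93 ± 0.775 FPKM at 8 weeks, 3.3 ± 0.236 FPKM at 12 weeks and 6.9 ± 0.65 FPKM in control glands. Hspa8, Tsc22d3, Coa6 and Slc25a35 were not called between NOD glands at 8 weeks and control glands. Their 12-week values lay outside the range of both other groups, but 12 weeks was not tested against control here. In Hspa8 every 8-week library was also below every control library (log2 change -0.41, limma adjusted p = 0.102). Without any single 8-week library, Asgr1, Hspa8 and Slc25a35 no longer passed (adjusted p from 0.0674 to 0.159), and without 8-week library 2 or 3 Coa6 did not (0.107 and 0.0584). With transcript values summed, Asgr1 and Tsc22d3 (adjusted p = 0.193 each) and Calml4, Coa6, Hspa8 and Slc25a35 (0.0594 each) no longer passed. The cause of these differences was not tested.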

How the results depend on the processing

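Of the 209 named genes that were called, 146 kept the call and its direction under every alternative in which they were tested, apart from the test against 2-fold. With the filter at 5 FPKM 161 of 231 called genes that were followed were tested. Counts of higher and lower genes stayed within 1.5 times of 522 and 2216 with pseudocounts of 0.1 and 5, without a filter, with the filter over all 12 libraries, in the 6 libraries alone, with a robust prior and with transcript values summed. They were 322 and 1286 with a filter at 5 FPKM, which tested 5285 genes. Higher and lower counts were 1098 and 1245 with quantile normalization, 1182 and 1151 with library medians centred, 882 and 1410 with rescaling and 859 and 1083 with the median off. These moved the median of all genes by 0.16, 0.17 and 0.11 for the 3 scalings. Against a 2-fold change 45 and 70 passed. Leaving out each library in turn gave 364 to 587 higher and 1653 to 1908 lower genes. The count between the NOD ages, 10, was 15 without a filter, 18 with quantile normalization, 23 with rescaling and 4 with transcript values summed, and 6 to 14 without single NOD libraries at 8 weeks.

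With transcript values summed, Ctsh was at a log2 change of 0.0571 (adjusted p = 0.96), Dhrs3 at 0.26 (0.362) and Lrp5 at 1.20 (0.132), against falls in the gene values, and the cause was not tested.

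With the replicate number as a block 563 genes were higher and 2289 lower, and 228 of 231 called genes that were followed kept their call. Between the NOD ages Coa6, Hspa8 and Slc25a35 were not called with the block (adjusted p = 0.0585, 0.0699 and 0.0775). Libraries with the same number had correlated deviations of 0.06, 0.10 and 0.20. So few libraries cannot settle whether they share more than a number. Every NOD library correlated best with the control library of its own number, but control library 1 did so with NOD library 2 (0.08). Depth is unknown here, so no counting interval could be given and values under about 1 FPKM are the least certain.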

Other observations

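Outside secretion and immunity, single genes of several groups differed in NOD glands at 8 weeks, in some groups no more often than among all genes, of which 22.2% fell (10.9% with the median off). Of 17 growth factors and IGF binding proteins, 1 rose and 6 fell (3 and 5 with the median off). Igfbp2 was at 7.09, 5.98 and 8.3 FPKM in the NOD libraries, against 13.5, 14.7 and 20.4 FPKM in the control libraries (log2 change -1.07 ± 0.14 (SE), limma adjusted p = 0.000236), and Vegfa, which promotes vessel growth, was at 11.7, 11.9 and 9.93 FPKM in the NOD libraries, against 15.9, 19.9 and 24.7 FPKM in the control libraries (log2 change -0.79 ± 0.14 (SE), limma adjusted p = 0.00143). Every NOD library lay below every control library for both. Igfbp3 was at 12.3, 10.3 and 12.5 FPKM in the NOD libraries, against 5.61, 7.75 and 5.19 FPKM in the control libraries, the gene of this list that rose (log2 change 0.84 ± 0.14 (SE), limma adjusted p = 0.000978). Of 17 Wnt and Notch genes, 1 rose and 4 fell (1 and 1 with the median off), the falls being close to the share among all genes, with Sfrp2, a secreted Wnt antagonist, higher (log2 change 0.70, limma adjusted p = 0.00323) and Dkk3 lower (-0.60, 0.000821). Of 11 thyroid and retinoid genes, 4 fell (3 with the median off), and Aldh1a7, an aldehyde dehydrogenase, was at 0.335, 0.976 and 0.617 FPKM in the NOD libraries, against 1.51, 2.38 and 1.76 FPKM in the control libraries (log2 change -0.82 ± 0.15 (SE), limma adjusted p = 0.00172). Of 17 heat shock genes, 3 fell (1 with the median off), a smaller share than among all genes, and Hspb8, a small heat shock protein, was at 2.34, 1.55 and 1.41 FPKM in the NOD libraries, against 6.24, 6.76 and 5.4 FPKM in the control libraries (log2 change -1.38 ± 0.17 (SE), limma adjusted p = 0.000158).

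In 17 circadian clock genes, 1 rose and 1 fell (1 rose with the median off). The rise was close to the 5.24% of all genes and the fall a smaller share than their 22.2%. Cry2, a repressor of the clock, was at 9.01, 9.99 and 6.69 FPKM in the NOD libraries, against 4.15, 4.55 and 5.3 FPKM in the control libraries (log2 change 0.74 ± 0.15 (SE), limma adjusted p = 0.00319). Of 16 immediate early genes, which respond to stimulation within minutes, 1 rose, a share close to that among all genes, although their median log2 change was 0.76. Jun, of that list, was at 48, 30.6 and 114 FPKM in the NOD libraries, against 27.6, 18.2 and 51.6 FPKM in the control libraries, so single libraries of each group overlapped (adjusted p = 0.211). Of 18 collagens, Col20a1 rose (log2 change 0.92, limma adjusted p = 0.000867) and Col17a1 fell (-0.74, 0.0012), shares close to or below those among all genes. Of 19 matrix genes 1 fell (1 with the median off, when 2 rose), a smaller share than among all genes. The gene that fell, Mmp3, a protease that cuts matrix, was at 3.09, 1.47 and 1.46 FPKM in the NOD libraries, against 14.9, 9.75 and 7.7 FPKM in the control libraries (log2 change -1.97 ± 0.26 (SE), limma adjusted p = 0.000205). Of 9 genes of the Tyro3, Axl and Mer receptors and of the clearing of dead cells, 3 fell (1 with the median off, a share close to the 10.9% of all genes). In the Ly6 family 3 of 8 genes fell (3 with the median off).

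Some of the largest differences lay outside the rule by which genes were named, and were picked after their values were seen. Gm10260 on chromosome 13 was at 445, 379 and 499 FPKM in the NOD libraries, against 0.65, 2.17 and 2.17 FPKM in the control libraries (log2 change 7.43, limma adjusted p = 7.30e-10). Gm11361, also on chromosome 13, was at 233, 268 and 264 FPKM in the NOD libraries, against 9.01, 8.22 and 7.82 FPKM in the control libraries (4.77, 7.30e-10). Both are predicted genes whose groups did not overlap. Near-identical copies were not sought for them, so whether reads of other genes were counted there was not tested. A630073D07Rik on chromosome 6 was at 3.57, 2.79 and 2.52 FPKM in the NOD libraries, against 221, 98.6 and 230.0 FPKM in the control libraries (-5.45, 1.42e-07). Rec8, a cohesin subunit of meiosis, was listed at 0 in all 3 NOD libraries and at 6.23, 7.28 and 7.56 FPKM in the control libraries. Fndc5, the precursor of irisin, was at 0.982, 0.956 and 0.912 FPKM in the NOD libraries, against 16.2, 10.5 and 20.8 FPKM in the control libraries (log2 change -3.06 ± 0.18 (SE), limma adjusted p = 3.57e-07). Between 22 and 24 Mb of chromosome 13, where histone genes are clustered, 6 of 17 tested genes were at least 2-fold higher and 1 at least 2-fold lower.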
